A study of Mus musculus with 42 samples.

Results

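The transcription factors that set epithelial or mesenchymal state in mouse mammary tumours are described here through 6 genes: Snai1, Snai2, Zeb2 and Prrx1, which drive cells towards a mesenchymal state, and Grhl2 and Elf3, which act in epithelia. They were chosen by gene symbol in the platform annotation, which gave 7 probes for the 6 genes, among 15096 genes with a probe. Of the 7 probes, 6 were tested, since the second Grhl2 probe had values on both arrays of only 5 tumours. The 3 inducers Snai1, Zeb2 and Prrx1 varied together across tumours, and differences in Snai2 were not detectable over the error between arrays. Grhl2 was high in 4 tumours on its tested probe, while its second probe was high in only some of them and in other tumours too. Elf3 was lowest in the 5 tumours richest in Vim on the array where it was best measured.

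The arrays compare mammary neoplasms of mice that carry a c-Myc transgene driven by the Wap promoter, which is active in milk-secreting mammary epithelium (FVB/N-Tg(WapMyc)212Bri). Passage and selection in living mice gave 4 lines: glandular growth, solid or comedo growth without lung metastases, the same growth with lung metastases, and spindle-shaped mesenchymal growth. All 21 tumours share the transgene background, no tissue without it is among the samples, and the labels give no age, treatment or host for a tumour. Each array's label gives a tumour number and no line, so the tumours are compared with each other, by number, and not line with line.

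An epithelial cell holds its neighbours through junctions, and in an epithelial-mesenchymal transition it loses them and takes on the shape and matrix of a mesenchymal cell. Snail (Snai1, Snai2) and Zeb proteins are zinc-finger repressors that bind E-box sequences in genes of epithelial junctions such as Cdh1, while Grainyhead-like 2 (Grhl2) and the Ets factor Elf3 maintain epithelial genes. In the mammary gland, Snai2 is known from basal cells and spindle-cell tumours are known for mesenchymal genes.

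The E-box letters bound by Snail and Zeb proteins were looked for in the 250 bases before the start of the genes in RefSeq's promoter table (build GRCm38.p6), to show where they stand in members and in Epcam, an epithelial surface gene that orders the tumours below. Of the 6 members, 4 had a window in that table. The letters searched were CAGGTG and, on the other strand, CACCTG, which are the same motif read from either strand and cannot overlap as separate sites. They are in capitals in the 3 windows that hold them, each printed 5′ to 3′ along the gene's strand: Snai1 (chr2:167537945-167538194, plus strand), Elf3 (chr1:135258473-135258722, minus strand) and Epcam (chr17:87635729-87635978, plus strand).
Snai1: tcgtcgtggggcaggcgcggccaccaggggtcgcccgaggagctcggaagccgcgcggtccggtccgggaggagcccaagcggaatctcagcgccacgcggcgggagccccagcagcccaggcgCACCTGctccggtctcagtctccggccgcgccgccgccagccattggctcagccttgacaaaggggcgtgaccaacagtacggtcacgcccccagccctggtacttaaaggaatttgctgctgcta
Elf3: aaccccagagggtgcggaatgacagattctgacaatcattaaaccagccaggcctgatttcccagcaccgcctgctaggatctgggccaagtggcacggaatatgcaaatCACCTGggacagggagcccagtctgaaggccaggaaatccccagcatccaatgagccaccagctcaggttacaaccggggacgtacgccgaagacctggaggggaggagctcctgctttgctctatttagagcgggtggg
Epcam: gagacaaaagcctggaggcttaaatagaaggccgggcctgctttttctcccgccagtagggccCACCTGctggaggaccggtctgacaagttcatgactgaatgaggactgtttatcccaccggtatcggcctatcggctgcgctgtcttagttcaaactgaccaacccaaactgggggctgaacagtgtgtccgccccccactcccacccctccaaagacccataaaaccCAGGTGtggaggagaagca
The motif began 126 bases before the start in Snai1 and 140 bases before it in Elf3. Epcam held it at 187 and at 19 bases before the start. Among all 32851 windows of this length, 17.2% held the motif at least once and 2.06% held it 2 or more times. The 4 Zeb2 windows and those of Prrx1 and Vim did not have these letters. A match in such a window is a description of letters.

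A level below is the log2 ratio of a tumour to the common mouse RNA on its array, turned for the dye swap, and a tumour's mean is over its 2 arrays. Array 1 and array 2 stand for the 2 dye orientations. The sign of the whole table was chosen to make Myc positive and is not settled by the labels, so every sign below could turn as a whole while the relations between genes stay. An array measured 8600 to 21328 of 22800 probes, and array medians ran from -1.38 to 1.22. Array 2 of tumour 663 had a median of -1.22 over 12011 measured probes. Tumour 656 stood apart, since its arrays correlated at 0.074 before turning, against values below 0 in the other 20 tumours. Leaving it out changed no member's call. For the members, tumour 669 had arrays far apart too. The 2 arrays of a tumour were read as hybridisations of the same RNA, so the p-values measure differences beyond hybridisation error and not the spread between animals, and 2 arrays per tumour limit the precision of each level.

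Vim, the intermediate filament of mesenchymal cells, and Epcam, an adhesion molecule of epithelial cells, give the frame in which the factors are read. Vim averaged 0.30 to 1.22 in tumours 644, 646, 647, 649 and 673, against -4.84 to -3.02 in the other 16 tumours. Epcam averaged -3.13 to -0.02 in the same 5 tumours, against 1.27 to 3.69 in the other 16. The 5 were taken as the tumours of highest mean Vim, so the Vim ranges could not overlap. Those of Epcam did not overlap. These 5 tumours are called Vim-high below. The name comes from the data and not from the study's lines, so no test sets them as a group against the rest. The share of all genes whose ranges do not overlap between these tumours and the others was not counted. Where ranges are said below not to overlap, that is a description of the gene alone and not a trait particular to it. Slide run is a name given here to groups of arrays with near running numbers in their titles, whose meaning the labels do not give. Of the Vim-high tumours, 644 lay in slide run 1, 646 in runs 1 and 3, and 647, 649 and 673 in run 3. None lay in run 2.

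By limma's F statistic, adjusted by Benjamini-Hochberg over all probes, 3 of the 6 members (Grhl2, Prrx1 and Zeb2) passed an adjusted p of 0.05 for differences between tumours. The share of all 9407 tested probes was 19.2%. Unadjusted p-values were below that threshold for 4 members, the fourth being Snai1, and for 3043 of the 9407 probes. Among pairs of tumours, where 2.76% of all contrasts passed within-pair adjustment, Grhl2 differed in 51 of 210 pairs, Prrx1 in 14, Snai1 and Zeb2 in 8 each, and Elf3 in 0. Snai2, measured in 20 tumours, differed in 0 of 190 pairs. At an unadjusted p the counts were 31 pairs for Elf3 and 0 for Snai2, and the share of all contrasts at that level was not counted. In the order of levels, no neighbouring tumours differed for any of the 6 genes.

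**Figure D1:**
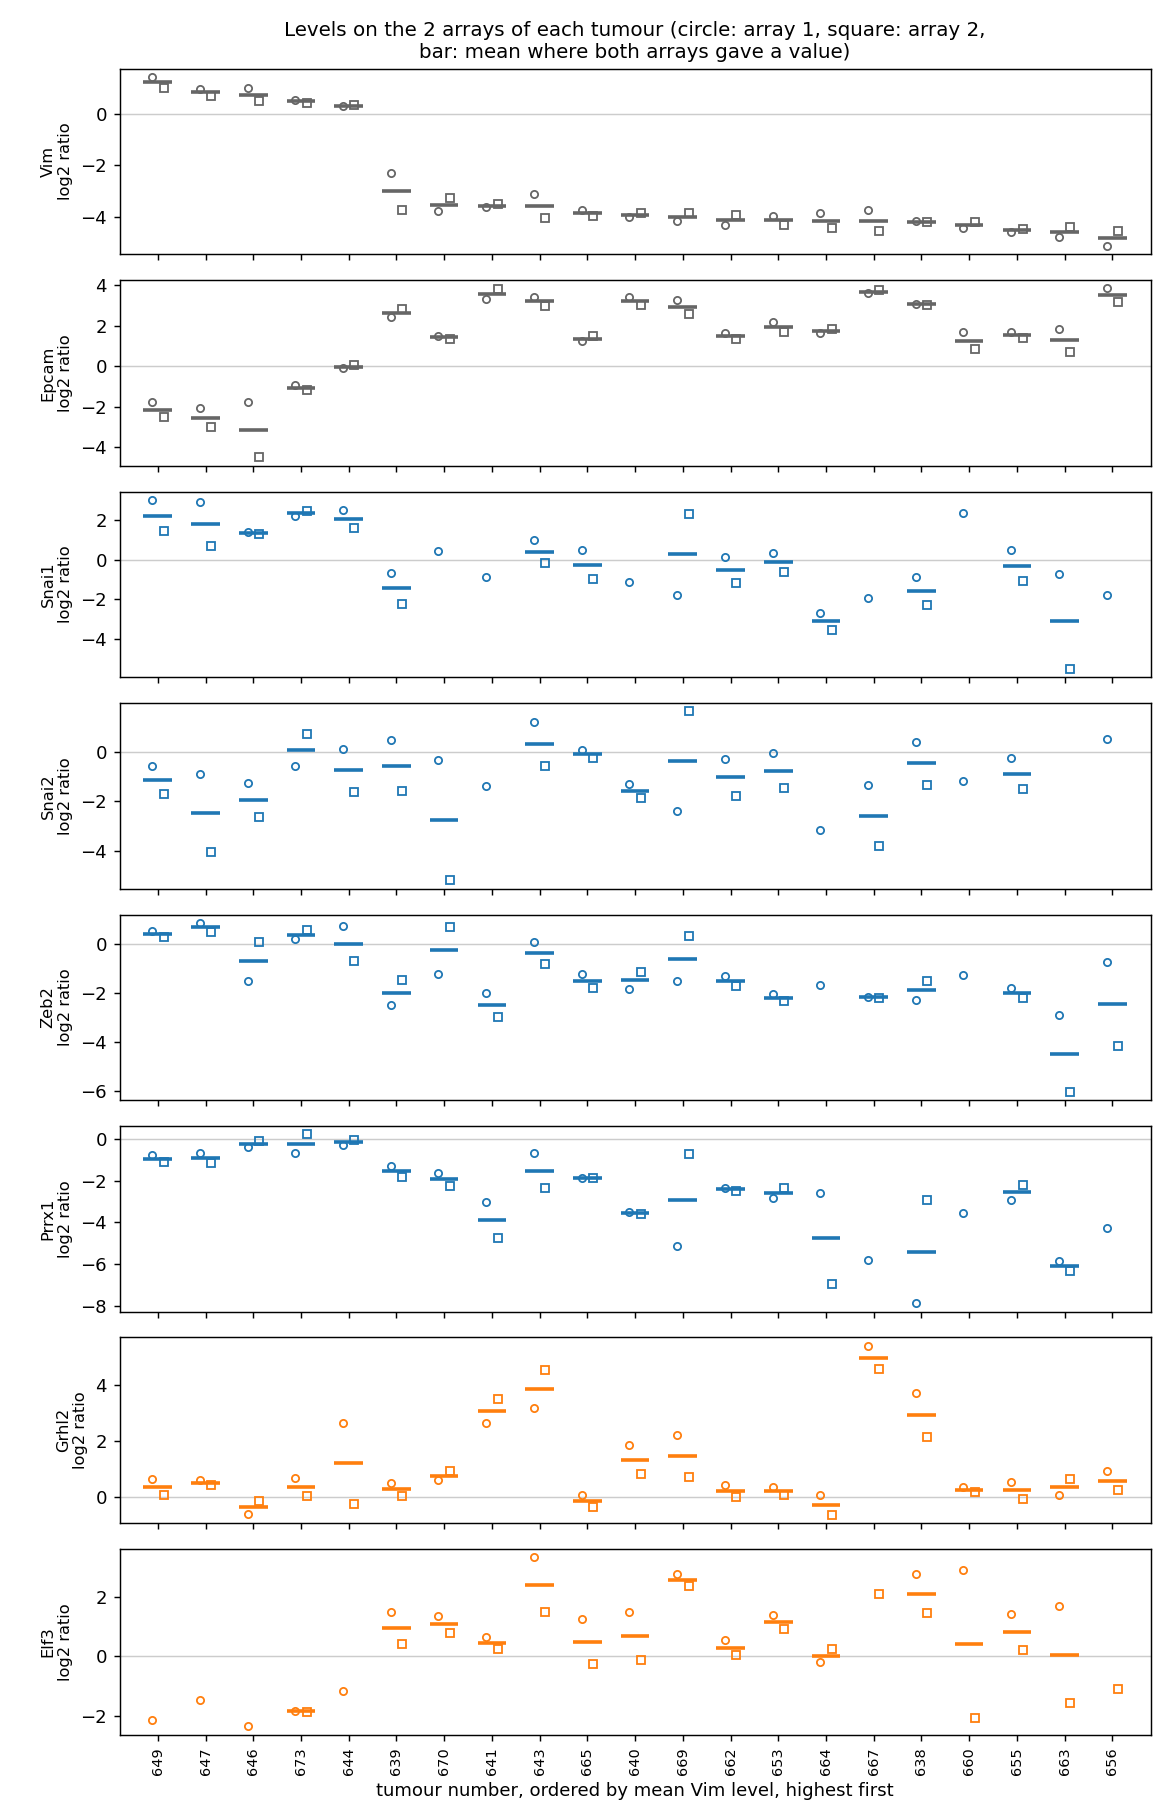
Levels (log2 ratio, turned) of Vim, Epcam and the 6 factors on array 1 (circles) and array 2 (squares) of each tumour, with a bar at the mean where both arrays gave a value, and tumours ordered by mean Vim from the left. The 5 tumours on the left have the highest Prrx1 and Snai1 means (-0.94 to -0.17 and 1.33 to 2.34), while the 4 high Grhl2 tumours (2.94 to 4.97) lie among the others.

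Snai1, the founding Snail repressor of Cdh1, was highest in the Vim-high tumours. It read 2.51 and 1.60 on arrays 1 and 2 of tumour 644, 1.39 and 1.28 in tumour 646, 2.92 and 0.68 in tumour 647, 3.01 and 1.44 in tumour 649, and 2.22 and 2.46 in tumour 673. Means over both arrays were 1.33 to 2.34 with a median of 2.06 in these 5 tumours, against -3.12 to 0.39 with a median of -0.42 in the 10 others measured on both arrays. The means did not overlap. A further 6 tumours had array 1 alone, among them tumour 660 at 2.36, which lay as high as the Vim-high tumours. Array 1 read higher than array 2 in 13 of 15 tumours, by a median of 1.30, so a level from array 1 alone is not on the scale of a mean. The tests still took such a level as the tumour's value. The lowest tumours were 664, at -2.69 and -3.54, and 663, at -0.72 and -5.51.

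Across all tumours the test of Snai1 gave an adjusted p of 0.0698 in limma (standard error of a mean of 2 arrays 0.95), so it missed the threshold. It passed with each array centred on its median (0.00532), with quantile normalization (0.00102), with the dye orientation as a covariate (0.0135) and without tumour 669 (0.0303). Leaving out either array of tumour 663 (0.0107 and 0.0411) or of tumour 669 (0.033 and 0.0293) also made it pass. All 8 pairs of tumours that differed set a Vim-high tumour (644, 647, 649 or 673) against tumour 663 or 664, and the Vim-high tumour was the higher by 4.91 to 5.45.

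Zeb2, a zinc-finger homeobox repressor, was at its highest in 4 of the 5 Vim-high tumours. Its arrays 1 and 2 read 0.74 and -0.68 in tumour 644, -1.51 and 0.12 in tumour 646, 0.88 and 0.53 in tumour 647, 0.53 and 0.28 in tumour 649, and 0.22 and 0.59 in tumour 673. The means were -0.70 to 0.70 with a median of 0.40 in these tumours, against -4.48 to -0.24 with a median of -1.93 in the 14 others measured on both arrays. The ranges overlapped, because tumours 670 (-0.24), 643 (-0.34) and 669 (-0.59) lay above tumour 646 (-0.70). With each array centred on its median the 5 Vim-high tumours held the 5 highest means. Tumour 663 had the lowest, at -2.91 and -6.05.

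Zeb2 passed the limma test (adjusted p = 0.0327, standard error 0.69). All 8 pairs of tumours that differed involved tumour 663, which lay lower by 3.78 to 5.18. The call was lost with centred arrays (0.0555), quantile normalization (0.0996), slide run as a block (0.256) and a filter of both arrays in at least 10 tumours (0.0565). It was also lost in 10 of 42 fits that left out a single array, those without an array of tumours 641, 653, 655 or 663 and those without either array of tumours 647, 649 or 673, where adjusted p was 0.0505 to 0.0611.

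Prrx1, a paired-type homeobox factor of limb and facial mesenchyme, had its 5 highest means in the 5 Vim-high tumours. Arrays 1 and 2 read -0.27 and -0.07 in tumour 644, -0.39 and -0.10 in tumour 646, -0.68 and -1.14 in tumour 647, -0.78 and -1.11 in tumour 649, and -0.70 and 0.22 in tumour 673. Means were -0.94 to -0.17 with a median of -0.24 in these tumours, against -6.07 to -1.53 with a median of -2.59 in the 13 others measured on both arrays. The means did not overlap, though array 1 of tumour 643 read -0.70 and array 2 of tumour 669 read -0.71. The next means were those of tumours 643 (-1.53) and 639 (-1.55). The lowest means were those of tumours 663 (-5.83 and -6.31), 638 (-7.87 and -2.92) and 664 (-2.58 and -6.92), and tumour 667 read -5.81 on its only array.

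Prrx1 passed the limma test (adjusted p = 0.0284, standard error 0.95). Of the 14 pairs of tumours that differed, 12 set a Vim-high tumour against another and 7 involved tumour 663. The largest difference was that of tumour 644 minus tumour 663, at 5.91 (adjusted p = 0.00749). The call was lost with quantile normalization (0.0858) and with slide run as a block (0.0621). It was lost as well without either array of tumour 644 (0.0539 and 0.0505), or without an array of tumour 646 (0.0523), tumour 663 (0.0616) or tumour 673 (0.0527).

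Snai2, known as Slug and expressed by basal mammary cells, had no difference between tumours that could be told from the error between its arrays. Arrays 1 and 2 read 0.12 and -1.63 in tumour 644, -1.26 and -2.64 in tumour 646, -0.92 and -4.04 in tumour 647, -0.58 and -1.72 in tumour 649, and -0.58 and 0.72 in tumour 673. Means were -2.48 to 0.07 with a median of -1.15 in these tumours, against -2.76 to 0.32 with a median of -0.78 in the 11 others measured on both arrays. The ranges overlapped almost wholly, and 1 Vim-high tumour, 673, was among the 5 highest.

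The limma test of Snai2 did not pass (adjusted p = 0.809, standard error 1.05), and its adjusted p was 0.401 to 0.946 over the alternatives. The arrays of a tumour disagreed about as much as tumours did: they read -0.32 and -5.19 in tumour 670, -0.92 and -4.04 in tumour 647, and -2.40 and 1.62 in tumour 669. Array 1 was the higher in 14 of 16 tumours, by a median of 1.45. A difference in Snai2 between tumours was therefore not detectable at this precision, which does not show that the tumours were alike.

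Grhl2, which upholds junction genes in epithelia, was high in 4 tumours. Arrays 1 and 2 read 5.39 and 4.56 in tumour 667, 3.20 and 4.52 in tumour 643, 2.64 and 3.51 in tumour 641, and 3.73 and 2.14 in tumour 638. All 8 of these arrays read 2.14 or more, and elsewhere array 1 of tumour 669 (2.20) and of tumour 644 (2.64) did so. The other 17 tumours had means of -0.36 to 1.47, the highest being tumours 669 (1.47), 640 (1.35) and 644 (1.21), and a model of 1 to 3 normal components split the means into 17 and 4 tumours. The Vim-high tumours had means of -0.36 to 1.21, within the range of -0.27 to 4.97 in the other 16 but for tumour 646.

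Grhl2 was measured on all 42 arrays and passed the limma test (adjusted p = 9.1e-05, standard error 0.50). All 51 pairs that differed set tumour 638, 641, 643 or 667 against 1 of the other 17. Tumour 667 minus tumour 646 was the largest, at 5.33 (adjusted p = 2.26e-05). Tumour 638 lay in slide run 1 and the other 3 in run 3. The 4 tumours were among the 8 that formed the highest of 3 components of Epcam (2.64 to 3.69), but the highest Epcam came without high Grhl2 as well: tumour 656 had a mean Epcam of 3.51 and a mean Grhl2 of 0.60. The second Grhl2 probe had values on 23 arrays. Single arrays of it were high in tumours 643 (7.89) and 638 (4.69), which were high on the first probe too. They read lower in tumours 667 (1.71) and 641 (1.22), where the first probe averaged 4.97 and 3.08. In tumours 640 (4.81), 639 (4.39) and 644 (3.59) they were high, where the first probe averaged 1.35, 0.28 and 1.21. Its 2 arrays read 3.28 and 1.06 in tumour 655, 2.07 and 2.59 in tumour 670 and 1.06 and 1.22 in tumour 673, but 4.07 and -3.17 in tumour 662 and 2.44 and -4.87 in tumour 663. The account above rests on the first probe.

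Elf3, an epithelial Ets factor, was lowest in the Vim-high tumours on array 1. That array read -1.15 in tumour 644, -2.33 in tumour 646, -1.44 in tumour 647, -2.13 in tumour 649 and -1.81 in tumour 673, against -0.19 to 3.31 with a median of 1.45 in the 14 others with a value. The array 1 values did not overlap. On array 2, 4 of the Vim-high tumours were blank and tumour 673 read -1.86, against -2.07 to 2.34 in the other 16, among which tumours 660 (-2.07), 663 (-1.57) and 656 (-1.10) were low too. The highest means were those of tumours 669 (2.54), 643 (2.40) and 638 (2.09).

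Elf3 missed the threshold in limma (adjusted p = 0.178, standard error 0.86). In tumour 660 its arrays read 2.90 and -2.07, and leaving out either array of that tumour gave an adjusted p of 0.0179 or 0.0134. It also passed with centred arrays (0.0182), quantile normalization (0.00471) and the dye orientation as a covariate (0.00809). Array 1 was the higher in 14 of 15 tumours, by a median of 1.07, so the lowest values on array 1 alone are set beside values of the same array only.

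The share of variance that lay between tumours was taken as the intraclass correlation over a tumour's 2 arrays, which depends on the spread between tumours as well as on the error between arrays. It was 0.79 for Grhl2 (95% interval 0.556 to 0.908, n = 21 tumours), 0.535 for Zeb2 (0.129 to 0.79, n = 19), 0.512 for Prrx1 (0.085 to 0.783, n = 18) and 0.51 for Snai1 (0.032 to 0.802, n = 15). These 4 lay above the upper quartile of all tested probes, 0.433. Elf3 had 0.172 (-0.343 to 0.614, n = 15) and Snai2 -0.159 (-0.587 to 0.346, n = 16), below the median of all tested probes, 0.188. The value of Elf3 leaves out the 4 Vim-high tumours that have no array 2 value. The standard deviation between a tumour's arrays was 0.699 for Grhl2, 1.01 for Zeb2, 1.28 for Elf3, 1.41 for Prrx1, 1.44 for Snai1 and 1.58 for Snai2.

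**Figure D2:**
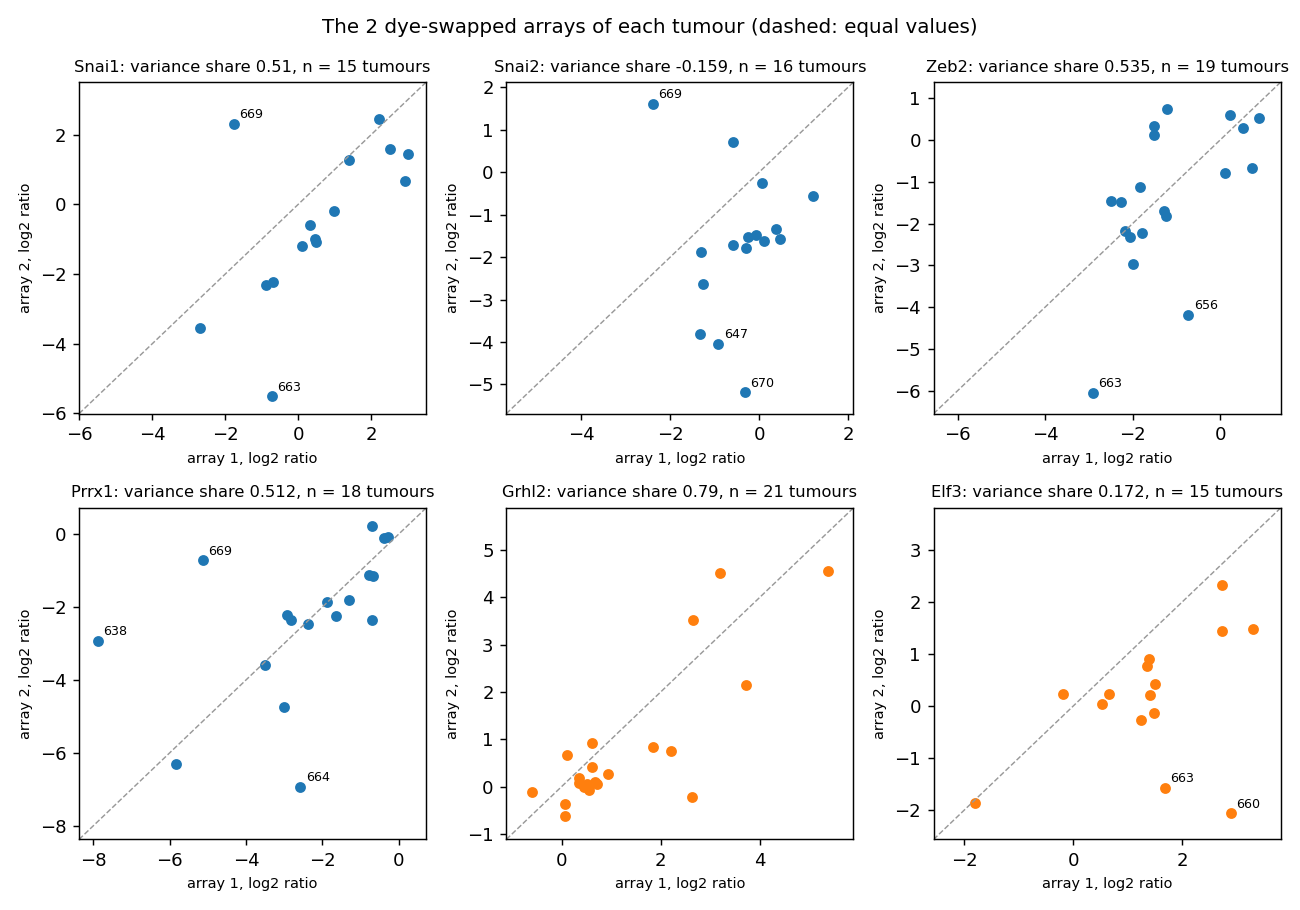
Level (log2 ratio, turned) on array 2 against array 1 for each of the 6 factors, with 1 point per tumour measured on both arrays and a dashed line of equal values. Grhl2 points lie closest to the line (variance share 0.79), Snai2 points scatter (-0.159), and tumours whose arrays differ by more than 3 are numbered, tumour 669 among them for Snai1, Snai2 and Prrx1.

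Snai1, Zeb2 and Prrx1 varied together across tumours. The correlation of tumour means was r = 0.93 for Snai1 with Zeb2 (n = 14 tumours, permutation p = 2e-05, adjusted 0.0003), with a rank correlation of 0.851 (permutation p = 0.00017, adjusted 0.00127). It was r = 0.881 for Snai1 with Prrx1 (n = 15, permutation p = 4e-05, adjusted 0.0003), with a rank correlation of 0.843 (permutation p = 0.00015, adjusted 0.00127). For Zeb2 with Prrx1 it was r = 0.805 (n = 17, permutation p = 9e-05, adjusted 0.00045), with a rank correlation of 0.743 (permutation p = 0.00096, adjusted 0.0048). These were the 3 that passed among 15 relations, all two-sided and adjusted over the 15. Without the 2 tumours farthest from the median of the first gene, r was 0.879, 0.784 and 0.685.

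Both genes of such a pair were read from the same arrays. With the first gene read from an array and the second from the tumour's other array, r was lower than over means. It was 0.60 for Snai1 with Zeb2, 0.59 for Snai1 with Prrx1 and 0.57 for Zeb2 with Prrx1. The parts of single-array error and of error shared by genes on the same array were not tested. With every gene read from the array with fewer blanks, which lets all tumours of that array enter, r was 0.71, 0.65 and 0.65 (adjusted p of 0.006, 0.00765 and 0.00765 by permutation). Among the tumours of lower Vim that had both arrays for both genes, a choice made after seeing the data, r was 0.88 for Snai1 with Zeb2 (n = 9, exact permutation, adjusted p = 0.0335), 0.78 for Snai1 with Prrx1 (n = 10, adjusted p = 0.0555) and 0.70 for Zeb2 with Prrx1 (n = 12, adjusted p = 0.0555). With slide run taken out of the tumour means, r was 0.90, 0.85 and 0.79. Within slide run 3 alone, Zeb2 with Prrx1 had r = 0.92 (exact permutation, adjusted p = 0.00595), and runs 1 and 2 held too few tumours for a value.

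**Figure D3:**
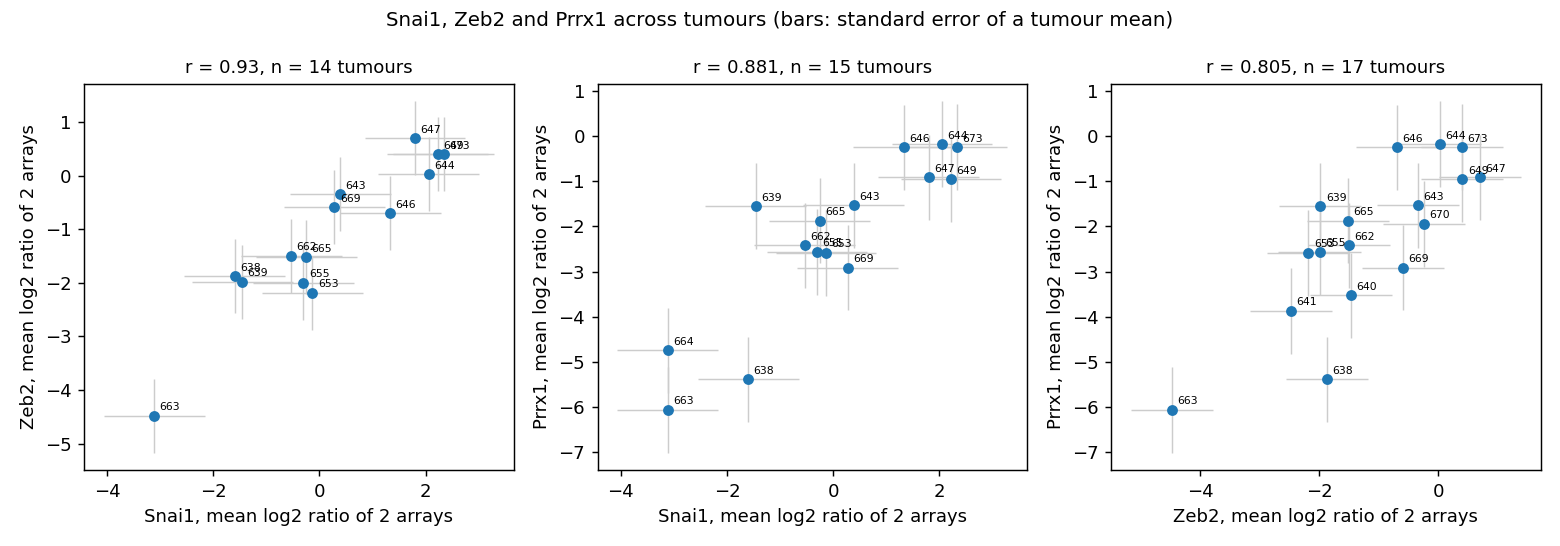
Mean log2 ratio of Snai1, Zeb2 and Prrx1 set against each other, with 1 numbered point per tumour measured on both arrays for both genes and grey bars of 1 standard error of a tumour mean. The Vim-high tumours 644, 646, 647, 649 and 673 lie at the upper right and tumour 663 at the lower left, with r of 0.93, 0.881 and 0.805.

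Snai2 had r of -0.291 with Snai1 (n = 13), -0.068 with Zeb2 (n = 16) and -0.11 with Prrx1 (n = 15), none of which passed. With a variance share of -0.159 between tumours, a relation of Snai2 was not detectable here. The epithelial factors fell into components of level and were related to others within a component only. In the 17 tumours of lower Grhl2 it had r = 0.323 with Snai1 (n = 13), 0.192 with Zeb2 (n = 15) and -0.001 with Prrx1 (n = 15), and none passed. In the middle component of Elf3, Prrx1 had r = 0.73 (n = 10, permutation p = 0.0148, adjusted 0.0555), which missed the threshold and was 0.356 without 2 tumours. With Vim and Epcam, 14 relations could be computed within components and 0 passed. The lowest permutation p there was 0.0326, that of Prrx1 with Vim in the lower Vim component (r = 0.596, n = 13, adjusted 0.456), the 1 relation of the 14 with an unadjusted p below 0.05. Cdh1 had both arrays in 7 tumours, too few in any component.

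Among the sister factors of the members, only Snai3 passed the filter for testing, and it did not pass the test (adjusted p = 0.398 over genes). It averaged -1.73 in tumour 673 and 1.22 in tumour 639. Zeb1, the second Zeb repressor, had values on 27 arrays and read 1.59 and 1.07 in tumour 649, 1.10 and 1.07 in tumour 673, 0.67 and 0.32 in tumour 647, -1.53 and 0.21 in tumour 646, and -2.04 and -0.32 in tumour 644. Of the other tumours, tumour 639 alone had a Zeb1 value above 0, at -0.68 and 1.93. Prrx2, the paralogue of Prrx1, read 0.90 and 0.57 in tumour 644, 0.90 and 0.38 in tumour 646, 1.38 and -0.61 in tumour 647, 1.76 and 0.76 in tumour 649, and 0.75 and 1.01 in tumour 673. Outside these tumours Prrx2 was above 0 in tumour 643 (0.39, on array 1 alone), on array 2 of tumour 669 (1.10, against -4.78 on array 1) and on array 2 of tumour 670 (0.39, against -0.98). With the filter lowered to both arrays in 10 tumours, adjusted p was 0.241 for Zeb1 and 0.151 for Prrx2, so neither passed. The same filter let in the inducers Twist1 (adjusted p = 0.768) and Twist2 (0.978), which did not pass. Twist1 means were -1.46 to 1.02 in the Vim-high tumours, against -1.77 to -0.49 in the others with both arrays. Twist2 means were -1.80 to -0.44 in the Vim-high tumours, against -3.12 to 0.11 in the others. Both genes' ranges overlapped.

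The epithelial sisters were measured on too few arrays to test. Grhl1 had 28 arrays and read -1.80 in tumour 646, -3.70 in tumour 647 and -2.32 in tumour 649, each on a single array, while tumours 644 (0.65 and 1.58) and 673 (1.26) were positive. Ehf, an Ets factor close to Elf3, had 27 arrays, and its lowest values were -1.50 in tumour 646 and -0.41 in tumour 649. The other Vim-high tumours, 644 (1.70), 647 (3.59) and 673 (3.62), lay within the range of the rest. Elf5, an Ets factor of milk-secreting cells, had 22 arrays and no value in tumours 644, 647, 649 and 667, the last not Vim-high. It read -2.26 and 2.00 in tumour 646 and 2.65 in tumour 673. No probe was annotated to Grhl3.

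Around the members, most tested genes of the mesenchymal programme differed between tumours. Of 19 mesenchymal targets tested, 17 passed in limma with probes of a gene averaged, against 18.9% of all 7629 genes. Their median range of tumour means was 6.06, against 3.08 for all genes. The smallest adjusted p-values were those of Vim (8.04e-11), the collagen chains Col1a1 (4.68e-09) and Col1a2 (7.12e-09), and the matrix protein Sparc (7.5e-09). Col1a1 averaged 3.08 in its highest tumour, 646, and -2.90 in its lowest, 656. Cdh11 (adjusted p = 0.0676) and Cald1 (0.485) did not pass.

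Among 14 epithelial junction and surface genes, 8 passed, with a median range of 4.97. Epcam (adjusted p = 1.86e-08), the protease inhibitor Spint2 (1.13e-05), the desmosome-linked Perp (1.73e-05) and the polarity gene Llgl2 (3.24e-05) had the smallest adjusted p-values. Spint2 averaged -3.10 in tumour 649 and 3.83 in tumour 667, and Llgl2 -0.86 in tumour 646 and 2.62 in tumour 655, with a Vim-high tumour the lowest in both. Perp was lowest in tumour 660 (-1.17), the keratins Krt8 and Krt18 in tumour 656 (0.74 and -2.98), and the tight junction gene Tjp1 in tumour 664 (-1.56). Krt8 and Tjp1 were highest in Vim-high tumour 649 (3.24 and 1.92).

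Of 7 other inducers of mesenchymal state tested, 3 passed: the E proteins Tcf4 (adjusted p = 0.00464) and Tcf12 (0.0248) and the homeobox factor Msx2 (0.00822). All 3 had their lowest mean in tumour 663 (-3.77, -2.82 and -3.53), which was also the lowest for Zeb2 and Prrx1. Tumour 663 was lowest too for genes of other lists, such as Smad4 (-1.38), Cd14 (-2.14) and the epithelial factor Foxa1 (-1.32), and highest for Krt19 (2.31). With each array centred on its median its Zeb2 mean was -3.78, still the lowest, and its Prrx1 mean was -5.37, above tumour 638 (-5.47). Msx2 and Tcf12 were highest in tumour 649 (1.11 and 0.41) and Tcf4 in tumour 643 (1.30). Of 4 other epithelial transcription factors tested, 0 passed in limma and 1, Gata3, had an unadjusted p below 0.05 (adjusted 0.0616). The count was 2 with centred arrays, where 19.6% of all genes passed, and 3 with the dye covariate, where 45.1% did.

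Among 16 genes of upstream signals, 8 passed, with Fgfr1 (adjusted p = 0.00103), Ski (0.00116), the TGF-beta receptor Tgfbr2 (0.00161) and the Wnt effector Ctnnb1 (0.00169) first. Fgfr1 averaged 2.81 in tumour 649 and -4.89 in tumour 638, and Tgfbr2 2.70 in tumour 646 and -4.38 in tumour 664. The count was 4 with slide run as a block, where 7.68% of all genes passed, against 18.9% in the main setting. Of 17 co-repressors and regulators of Snail and Zeb proteins, 3 passed, a share of 17.6% that is near the 18.9% of all genes. They were Ajuba, a LIM protein that binds Snail (1.46e-05), and the Zeb partners Ctbp2 (5.35e-05) and Ctbp1 (0.048). Ajuba averaged 1.68 in tumour 646 and -2.55 in tumour 667.

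The median levels of macrophage and fibroblast markers were higher in the same 5 tumours as Snai1 and Prrx1. The median level of the macrophage markers was 2.06 to 2.72 in the 5 Vim-high tumours, against -2.16 to 1.14 in the other 16, and 8 of 9 tested differed between tumours. That of the fibroblast markers was 0.33 to 1.66 in the Vim-high tumours, against -5.92 to -0.13 in the others, and 3 of 4 differed. The median of the mammary epithelial markers, of which 5 of 5 differed, ran the other way, with -1.26 to 0.17 in the Vim-high tumours, against 0.29 to 3.57 in the others. Epcam and Csn2 were lowest in Vim-high tumour 646 and Csn3 in 647. Krt8 and Krt18 did not follow: both were lowest in tumour 656, not Vim-high, and Krt8 was highest in Vim-high tumour 649 (3.24). Among all genes tested, 18.9% differed. Basal and myoepithelial markers overlapped, at -0.16 to 0.78 in the Vim-high tumours and -3.20 to 0.71 in the others, and 1 of 3 differed. Endothelial (1 tested), T and NK cell (2) and adipocyte (2) markers gave 0 calls, with 0 at an unadjusted p as well. The part of these cells in the levels of Snai1, Zeb2 and Prrx1 was not tested, and in bulk tumour RNA fewer cells of a type and less RNA per cell cannot be told apart.

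The genes whose tumour means ran most like a member's were named by Pearson correlation over at least 12 shared tumours, as a description with no p, since the tumours share arrays and depth. Snai1 was followed most closely by the metalloprotease Adam19 (r = 0.983, n = 12), the protease inhibitor Tfpi2 (0.965, n = 12), the water channel Aqp1 (0.965, n = 15) and the lysyl oxidase relative Loxl3 (0.964, n = 12). Zeb2 was followed by the adaptor Sh3bp2 (0.967, n = 16), the urokinase receptor Plaur (0.933, n = 16), Snai1 itself (0.93, n = 14) and the adaptor Shc1 (0.928, n = 18). Prrx1 was followed by the zinc-finger factor Zic4 (0.971, n = 16), the gelatinase Mmp2 (0.927, n = 16), Aqp1 (0.923, n = 17) and the matrix protein Fbln2 (0.922, n = 15). Its most opposed gene was the milk casein Csn2 (-0.875, n = 18), followed by Hibadh (-0.824, n = 18). Snai1 was most opposed by Rab26os (-0.906, n = 12) and malic enzyme Me1 (-0.871, n = 14), and Zeb2 by 4930407I19Rik (-0.797, n = 17) and Dact2 (-0.736, n = 19).

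The epithelial factors and Snai2 had other neighbours. Elf3 ran most like Yipf6 (r = 0.953, n = 15), Trp53inp1 (0.942, n = 13), Myc, the transgene's own gene (0.942, n = 15), and Rbm19 (0.884, n = 13), and was most opposed by the collagen chain Col6a3 (-0.898, n = 12) and Tmtc4 (-0.881, n = 14). Of the tumours with both Elf3 arrays, 14 were not Vim-high, so tumour 673 alone stands for the Vim-high ones here. Grhl2 ran most like the B-cell adaptor Blnk (0.905, n = 19), Cox14 (0.893, n = 21), Fam114a2 (0.886, n = 20) and Faap20 (0.875, n = 20), and was most opposed by Xlr3a (-0.859, n = 21) and Rap2c (-0.815, n = 21). With 4 tumours apart from the rest in Grhl2, its values describe that contrast. Snai2 ran most like Nrf1 (0.881, n = 16), Otp (0.877, n = 14), Phkg1 (0.875, n = 16) and Spam1 (0.867, n = 16), and was most opposed by Foxk2 (-0.779, n = 14) and Nbdy (-0.747, n = 14).

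**Figure D4:**
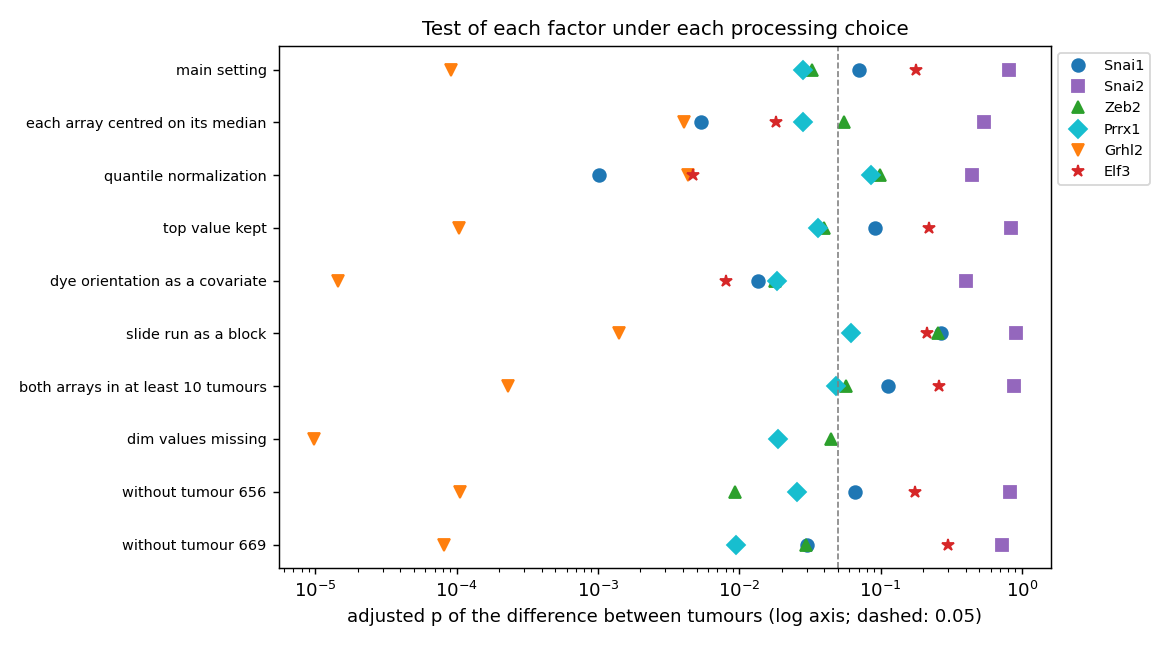
Adjusted p of the limma test between tumours (log axis, with a dashed line at 0.05) for each factor under the main setting and 9 alternatives. Grhl2 stays left of the line in all 10, Snai2 stays right of it, and Snai1, Elf3, Prrx1 and Zeb2 cross it.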

How the data were processed

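Total RNA of each tumour was labelled with Cy3 or Cy5 and hybridised in dye-swapped pairs, per the labels' protocols. The deposited values are log2 ratios of the dyes, a scale read from the values. For image processing, normalization and the dyes, no source used here gives details. The table held 22800 probes on 42 arrays, 726515 values and 24.1% blanks. A repeated top value of 16.61 (2.14% of values) was treated as missing. It is the highest by far, the others lying from -9.87 to 12.69, and its meaning is not stated. The 2 arrays of a tumour correlated at -0.565 to 0.074 over probes, so the difference between its arrays was taken, and arrays were turned by the sign each tumour had on the leading eigenvector of these differences. Both random parts of the probes gave the same orientation for 42 arrays. The scale and centring of the authors' processing and the overall sign stay unknown.

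Testing required values on both arrays in 15 or more tumours, met by 9407 probes and 7629 genes, and 232 Gapdh spots were averaged. limma 3.58.1 in R 4.3.3 gave empirical Bayes variances (prior degrees of freedom 2.76), from which the moderated F test of 21 tumours and the contrasts of pairs were computed, without centring, with Benjamini-Hochberg adjustment. A tumour with a value on 1 array alone entered the fits with that value, which was so for every member but Grhl2. The offset between dye orientations counted as error, except in the fit with the dye covariate. The method was checked on simulated data. Correlations used 100000 permutations, or exact enumeration under 10 tumours. Components came from mclust 6.1.1. Probe names came from the platform annotation, with 16874 probes of 1 symbol, 134 of several and 5792 of none, and 16196 matched by gene identifier. The named genes were the members and their sister factors, the 4 most alike and 2 most opposed genes of each member, and at most 4 genes of each list with the smallest p, and other list genes named in the text (such as Cdh11, Cald1, Krt8, Krt18, Tjp1, Twist1 and Twist2) were chosen after their values were seen. Members and lists were chosen with earlier results of these data known. Slide run was read from running numbers in the titles, whose meaning the labels do not give. A gap in these numbers within run 1 is wider than the gap between runs 2 and 3, so the division is a choice.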

Additional observations from a re-analysis of the deposited data

How the results depend on the processing

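Of the 6 members, 5 differed between tumours with the dye orientation as a covariate, a fit in which 43.9% of probes did, and 1 with slide run as a block, in which 7.55% did. With both arrays required in all 21 tumours, where 40.5% of probes passed, 1 member remained testable and 1 differed. In that fit 25 of 36 list genes passed, and 39.3% of all genes did. The main setting gave 39 of 77 list genes and 18.9% of all genes. Chosen after seeing the data, fits within a slide run gave 0 of 6 members in run 1 and 0 of 5 in run 2. Run 3 gave 1 of 4 (Grhl2). At an unadjusted p below 0.05 the counts were 2, 1 and 3 members, and the share of all probes at that level was not counted. Of all probes 0, 0 and 179 passed after adjustment. These fits rest on 4, 5 and 8 tumours with both arrays in the run. Leaving out each array in turn, with the lone array assumed to vary like the others, gave 1 to 4 members, the 1 without an array of tumour 673. Centring changed the calls of Snai1, Elf3 and Zeb2, and pairs for Grhl2 numbered 21 with centring and 20 with quantile normalization, against 51. Probes that passed numbered 4132 with the dye covariate, 710 with slide run as a block and 1448 to 2867 over the fits without an array, against 1804. Grhl2 passed in every setting run but slide runs 1 and 2 alone (adjusted p = 0.681 and 0.997), and Snai2 passed in none. The 3 relations between members became 1 in the lower Vim component and 1 in slide run 3, where 3 could be computed. Prrx1 with Elf3, in the middle component of Elf3, reversed to r = -0.29 on array 1, the array with fewer blanks. Of tumours not in the main relation, only tumour 660 entered there. The causes of these shifts were not tested. The probe measured on most arrays was the tested probe for each member, so that alternative is the main one. With dim values missing, 3 members (Grhl2, Prrx1 and Zeb2) could be tested and all 3 passed, in a fit where 28.6% of probes did. No paired analysis was possible because replicate numbers are in accession order and groups are single tumours. Of all values 20.1% lay within 0.001 of the log2 ratio of whole numbers up to 10. These were read as dim spots, which would limit precision. That reading is an inference, since no spot intensities were used.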

Other observations

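Blank values of the members were spread unevenly over the tumours. Elf3 was blank on array 2 in 4 tumours, all 4 of them Vim-high (644, 646, 647 and 649), and on array 1 in 2 others (656 and 667). The inducers were blank on array 2 in 6 tumours for Snai1, 5 for Snai2, 3 for Prrx1 and 2 for Zeb2, none of them Vim-high. Grhl2 had no blank on its tested probe. A blank is not a level, and no source used here says why a value is blank.

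Cdh1, the junction cadherin that Snail and Zeb proteins repress in cultured cells, was measured on 23 arrays. In the Vim-high tumours it read 3.35 in tumour 644, 2.00 and 2.56 in tumour 647, 2.41 and 1.86 in tumour 649 and -0.81 in tumour 673, and tumour 646 had no value. In the other tumours the values were 1.52 to 7.35, the highest from the only array of tumour 663 with a Cdh1 value. The ranges overlapped, and the gene was not tested.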
